A study of Mus musculus with 12 samples.

Results

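The nuclear genes of oxidative phosphorylation were taken as the rows of the deposited expression table whose name begins with Nduf, Uqcr, Cox4 to Cox8 or Atp5, or is *Sdha*, *Sdhb*, *Sdhc* or *Sdhd*. Names that contain -ps were left out, and a value of at least 1 FPKM in 2 or more libraries was required. FPKM are fragments scaled to transcript length and to the mapped fragments of the library, so levels are per length and can be set side by side between genes. By name 105 of the 37432 genes matched, 9 of these were left out for -ps and 6 for the limit, and 90 remained. All 90 reached 1 FPKM in each of the 12 libraries, so none was a member through 1 group alone. Complex I holds 36 of them, its assembly factors 8, complex II 4, complex III 8, complex IV 17 and complex V 17. They lie on 19 chromosomes, 3 of them on the X, and all 90 are annotated as protein coding. The label was checked only by name and annotation, since the rule uses names and a low limit and no difference between groups.

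Oxidative phosphorylation is the last stage of respiration, carried out in the inner membrane of the mitochondrion. Complexes I and II pass electrons from NADH and succinate to ubiquinone, complex III passes them on to cytochrome c and complex IV to oxygen, and complexes I, III and IV pump protons as they do so. Complex V, the ATP synthase, lets the protons back and makes ATP. Most subunits are made from nuclear genes and imported, and a few core subunits come from the mitochondrial genome, so each complex other than complex II has to be put together from both sources. In the cochlea the marginal cells of the stria vascularis, the hair cells and the neurons of the spiral ganglion are known for their high use of ATP.

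The libraries came from the cochlea at P14, cut into the apical, middle and basal turn, of wild-type mice and of mice homozygous for *Gjb2* 35delG, a deletion of a single base in the gene of connexin 26. Genotype and turn make 6 groups, with 2 libraries in each. Homozygotes were males derived by tetraploid complementation from *Gjb2* 35delG/35delG embryonic stem cells, delivered by cesarean and raised by ICR foster mothers, on a background that is almost C57BL/6J. The wild-type mice were purchased males of the same age, so that genotype and origin cannot be told apart in any comparison. How many mice, cochleae or stem cell lines stand behind a library is not given in the sources used here, nor is whether turns with the same repeat number share animals, and p-values therefore measure the spread between these libraries. Fewer cells of a type and less RNA per cell cannot be told apart in such pieces of tissue.

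The sequencing depth behind the FPKM is unknown, and the spread between the repeats is the measure of error. Levels below are FPKM divided by a factor per library of 0.917 to 1.06 (scaled FPKM). *Gjb2*, whose mutation removes a single base, lay between 58.6 and 450.6 scaled FPKM in the 12 libraries, so its level is no check of the genotype. It was at 247.8 and 253.6 in the wild-type apical turn against 331.5 and 376.2 in homozygotes, at 139.7 and 268.2 against 255.8 and 450.6 in the middle turn, and at 434.5 and 255.6 against 126.4 and 58.6 in the basal turn, where it fell (log2 difference -1.94, limma adjusted p = 0.0238). By qPCR at P14 the study reported less *Gjb2* in the homozygous cochlea, a reduction that the apical and middle values did not show. The summed level of 11 cochlea markers (*Coch*, *Otor*, *Tecta* and others) was 3931 to 7335 scaled FPKM in 10 libraries but 1640 and 648.6 in the homozygous basal turn. Most of that sum was *Coch*, and in the homozygous basal turn *Otof* was at 0.0982 and 0.109, *Otog* at 0.126 and 0.0539 and *Slc26a5* at 0.0508 and 0. The summed level of 10 markers of spiral ganglion neurons (*Nefl*, *Nefm*, *Snap25* and others) was 3167 and 3641 in the homozygous basal turn, against 10.2 and 923.1 in the wild-type basal turn. In the middle turn the order was the other way, 419.4 and 50.4 in homozygotes against 1717 and 1895 in wild-type mice. Schwann cell markers summed to 9159 and 14490 in the homozygous basal turn against 1457 and 5527 in the wild-type one, and to 803.9 and 805.2 in the homozygous middle turn against 19530 and 5554. The part of these nerve and glia differences in the results below was not tested. A turn of the same name may not hold the same tissue in both genotypes, so a difference between genotypes within a turn and a difference in the tissue taken cannot be told apart in the results below.

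All but a few members were high. The highest of each complex by its mean over the 12 libraries were *Atp5b*, the catalytic beta subunit of the ATP synthase, at 414.6 scaled FPKM, *Cox4i1* of complex IV at 389.5, *Uqcrh* of complex III at 279.5, *Ndufb9* of complex I at 126.4 and *Sdha*, the flavoprotein of succinate dehydrogenase, at 94.8. The assembly factors, which build complex I and are not part of it, were lower, with means from 2.98 for *Ndufaf6* to 18.1 for *Ndufaf2*. Together the 90 genes made up 1.96% to 4.13% of the FPKM of a library. Just inside the limit lay *Cox4i2* and *Ndufa4l2*, whose second-highest value was 3.60 and 3.81 FPKM, then *Ndufaf6* at 4.01, *Cox6b2* at 8.77 and *Ndufaf4* at 8.79. Just outside lay *Cox6c2* at 0.927, *Ndufb4c* at 0.635, *Cox6a2* at 0.487, *Ndufa11b* at 0.367 and *Ndufs6b* at 0.161. *Ndufb1-ps*, left out for its name, reached 77.2 FPKM, a level like that of its complex I neighbours, while the other 8 rows with -ps did not pass 0.762.

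The members moved together from library to library. Their summed level was 6384 and 6779 scaled FPKM in the wild-type apical turn and 6311 and 10960 in the homozygous apical turn. In the middle turn it was 11860 and 13860 in wild-type mice and 8726 and 7834 in homozygotes. For the basal turn the values were 6495 and 13090 (wild-type) and 8880 and 15710 (homozygous). The homozygous middle turn thus lay below both of its wild-type libraries, whereas the genotypes overlapped in the apical and the basal turn. Across the 12 libraries 55 of the 90 members had a Pearson correlation over 0.9 with the median member profile (the median over members of each gene's log2 level minus its own mean), and 75 had one over 0.8. *Cox6b1*, at 0.995, and *Ndufs8*, at 0.989, were closest to it. These points share libraries and their scaling, and the members are themselves part of the median. The assembly factors departed from the subunits in repeat 1 of the homozygous basal turn, where their median was 0.40 on that centred log2 scale and the medians of the complexes lay between -0.24 and -0.02.

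**Figure D1:**
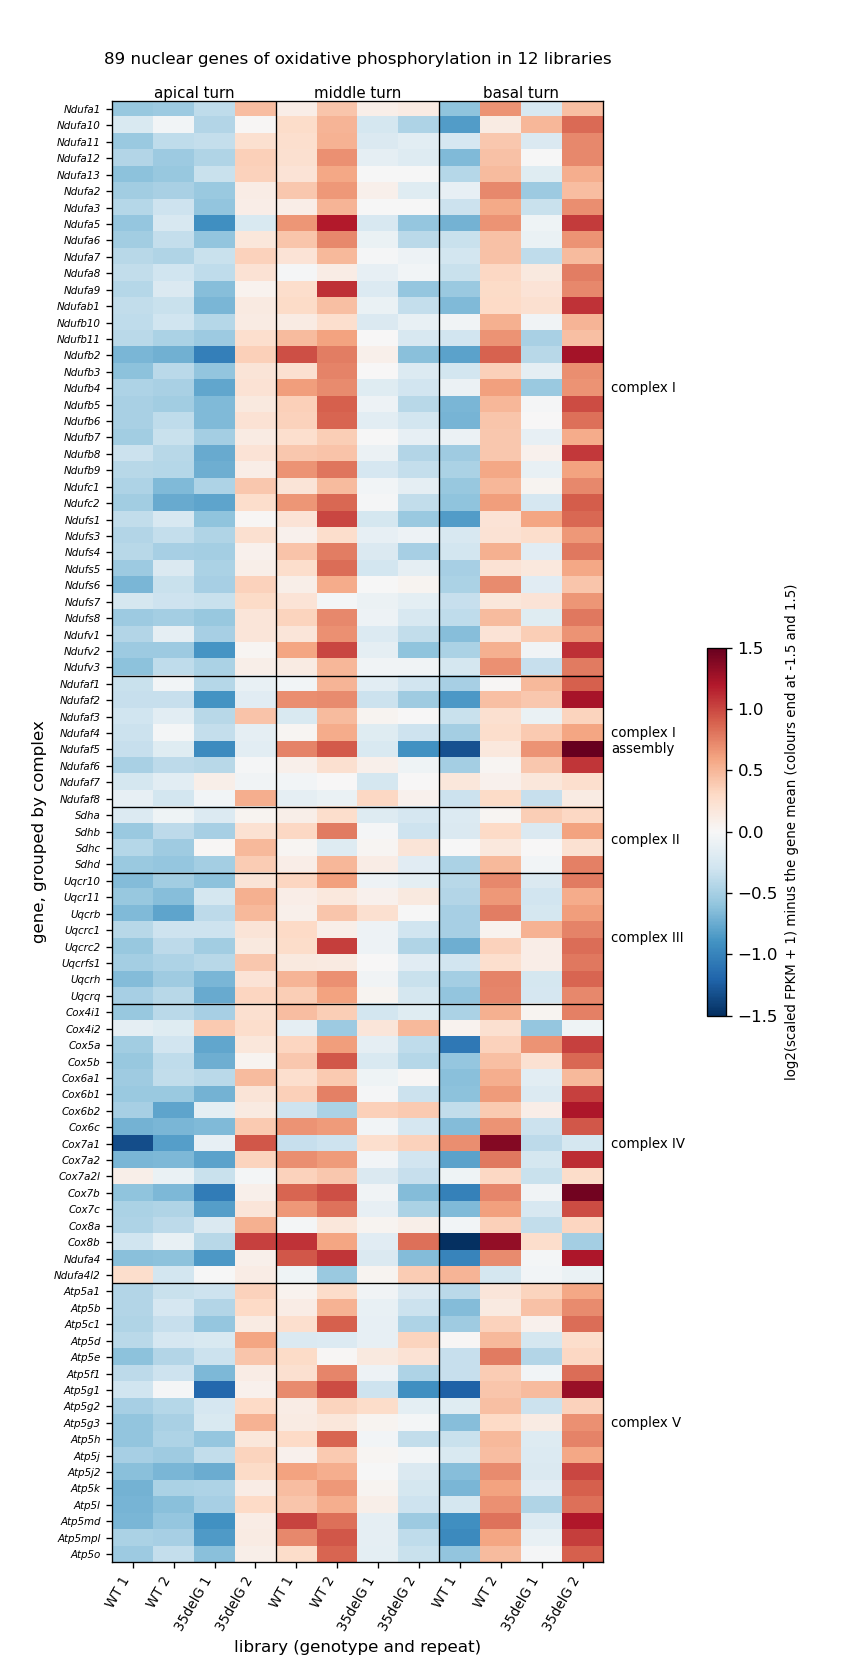
Level of 89 of the 90 members (rows, grouped by complex) in the 12 libraries (columns), as log2(scaled FPKM + 1) minus the mean of the gene, with red above and blue below that mean. Most members are low in the wild-type apical turn, in repeat 1 of the homozygous apical turn and in repeat 1 of the wild-type basal turn. Most are high in the wild-type middle turn and in repeat 2 of the wild-type and of the homozygous basal turn. Cox7a1, Cox8b, Cox4i2 and Ndufa4l2 depart from the other rows.

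Repeats of the same group differed widely in 3 of the 6 groups. In the homozygous apical turn 88 of the 90 members were higher in repeat 2, 72 of them by more than 1.5-fold, with a median ratio of 1.69. In the wild-type basal turn 88 were higher in repeat 2, 76 by more than 1.5-fold and 39 by more than 2-fold, with a median ratio of 1.92. In the homozygous basal turn 87 were higher in repeat 2, with a median ratio of 1.74. The other groups were closer, with median ratios of 1.07 in the wild-type apical turn, 1.17 in the wild-type middle turn and 0.876 in the homozygous middle turn. Between the wild-type basal libraries the neuron markers differed too, from 10.2 to 923.1, and the 13 protein genes of the mitochondrial genome from 26770 to 65720 in sum. Their part in the spread of the members was not tested.

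**Figure D2:**
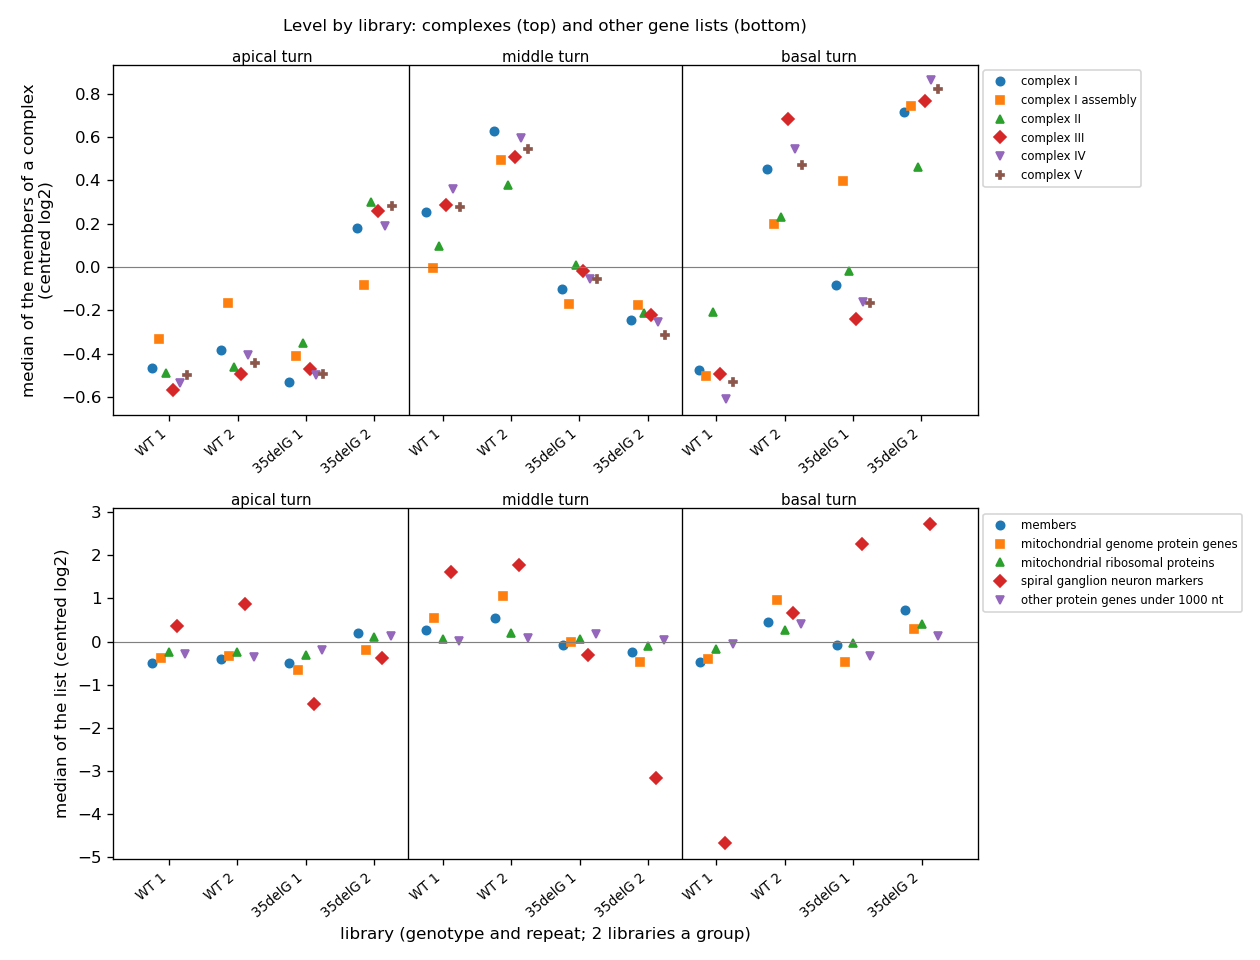
Median log2 level, each gene minus its own mean, in each of the 12 libraries, for the members by complex (top) and for the members beside other gene lists (bottom). The medians of the 90 members run from -0.50 in the first homozygous apical library to 0.74 in repeat 2 of the homozygous basal turn, and the neuron markers run from -4.67 to 2.72 on the same scale.

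In the apical turn no member passed the test. Genotypes were compared with limma on log2(scaled FPKM + 1), with Benjamini-Hochberg adjustment over the 16215 genes tested. The fit used a single spread per gene over all 6 groups, so a gene had the same SE in each turn. Repeats were further apart in some groups than in others, so the SE of a turn also holds the scatter of the other turns. By the thresholds of the study (more than 2-fold, with the adjusted p below 0.01), 0 of 90 members and 0.179% of all genes were called. At an adjusted p under 0.05 again 0 members were called, beside 0.518% of all genes as higher and 0.413% as lower. Before adjustment 2 members were under 0.05, both higher, beside 16.4% of all genes. Of the members 82 had a log2 difference above 0 and 8 below, with a median of 0.29 beside -0.03 over all genes. The libraries did not overlap for 24 members, all higher in homozygotes, which is 26.7% of the members and near the 26.9% of all genes that were so, and for no member in the other direction, against 32.1% of all genes. Without repeat 2 of the homozygous apical turn the median was -0.08, and without repeat 1 it was 0.67. Neuron markers were below 0 in this turn for 9 of 10 genes (median -1.71, none called). Schwann markers were below 0 for 8 of 8 (median -0.49, none called). Markers of stria marginal cells were above 0 for 7 of 7 (median 2.98, none called). Hair cell markers were below 0 for 10 of 10 (median -0.97, none called). The part of these lists in the members' difference was not tested.

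The smallest apical p-values belonged to *Cox7a1* and *Sdhc*. *Cox7a1*, the heart and muscle form of a small complex IV subunit, was at 4.80 and 7.25 scaled FPKM in wild-type mice and at 12.4 and 27.0 in homozygotes, a log2 difference of 1.48 ± 0.35 (SE, limma adjusted p = 0.0926). *Sdhc*, a membrane anchor of complex II, was at 22.4 and 20.9 against 31.1 and 43.1, a difference of 0.73 ± 0.19 (limma adjusted p = 0.112). Both genes separated the genotypes in these 4 libraries, although repeat 2 of the homozygotes, which was high for most members, was the higher one for each. Among the complexes the median difference ran from 0.08 for the assembly factors to 0.42 for complex II.

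In the middle turn most members were lower in homozygotes, but none passed the test. No member was called by the thresholds of the study (0.179% of all genes were), and none at an adjusted p under 0.05, where 1.63% of all genes were called higher and 2.36% lower. Before adjustment 16 members were under 0.05 as lower and 1 as higher by limma, 17 of 90 in all, a lower share than the 25.4% of all genes. Of the 90 members 82 had a difference below 0, with a median of -0.59 beside 0.04 over all genes. For 72 members, 80.0% of them, both homozygous libraries lay below both wild-type ones, against 28.2% of all genes. For 7 members they lay above, against 31.3%. The median kept its direction without any of the 12 libraries, between -0.72 and -0.47. The neuron markers were lower in the same libraries for 10 of 10 genes (median -3.50, none called), and the Schwann markers for 8 of 8 (median -2.53, 5 called), and their part in the members' difference was not tested.

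The order was shared by the complexes. All 36 members of complex I were below 0 (median -0.65), as were 8 of 8 in complex III (median -0.48), 15 of 17 in complex V (median -0.67) and 13 of 17 in complex IV (median -0.66). Complex II, with 3 of 4 below 0, and the assembly factors, with 7 of 8, had medians of -0.36 and -0.31. The difference was widest for *Atp5g1*, a gene of the rotor ring of the ATP synthase, at 119.8 and 144.6 scaled FPKM in wild-type mice and at 58.3 and 37.9 in homozygotes, a log2 difference of -1.47 ± 0.57 (limma adjusted p = 0.152). *Ndufa4*, a subunit of complex IV despite its name, was at 473.3 and 522.8 against 212.4 and 157.7 (difference -1.44 ± 0.59, limma adjusted p = 0.168). *Ndufaf5*, an assembly factor that modifies a complex I subunit, was at 15.3 and 17.3 against 7.25 and 4.18 (-1.40 ± 0.50, limma adjusted p = 0.125). In each of these genes the genotypes stood apart without overlap, and they belong to 14 members whose fitted difference was more than 2-fold lower without being called.

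Subunits of complex I that carry electrons or stand near that path had the same order in the middle turn. *Ndufs1*, the largest of the core subunits, was at 49.8 and 87.2 in wild-type mice and 35.8 and 29.0 in homozygotes. *Ndufv2*, of the NADH-oxidizing arm, was at 92.3 and 122.9 against 55.5 and 39.5, and *Ndufa9* at 68.3 and 121.8 against 48.7 and 37.4. Their log2 differences were -1.01, -1.17 and -1.08, with limma adjusted p-values of 0.143, 0.162 and 0.126. Members that ran the other way were few. *Cox4i2* was at 2.07 and 1.31 against 2.82 and 3.71 (0.67 ± 0.23, limma adjusted p = 0.118), and *Cox7a1*, *Cox6b2*, *Ndufa4l2*, *Sdhc*, *Atp5d* and *Ndufaf8* also had both homozygous libraries above both wild-type ones.

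In the basal turn 6 members were called at an adjusted p under 0.05, of which 5 rose and 1 fell in homozygotes. That is 5.56% of the members as higher, beside 9.94% of all genes, and 1.11% as lower, beside 8.17%. None was called by the thresholds of the study, which in this fit called 4.29% of all genes. The share of members called was thus below that of all genes in either direction. Of the 90 members 75 had a difference above 0, with a median of 0.38 beside -0.02 over all genes. Homozygous libraries lay above wild-type ones without overlap for 17 members (18.9%, against 26.2% of all genes) and below for 2 (2.22%, against 27.8%). The median was 0.83 without repeat 2 of the wild-type basal turn and -0.14 without repeat 1 of it, so its direction rested on that library. When the fit held the 4 basal libraries alone, no member and 0% of all genes were called at an adjusted p under 0.05.

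Assembly factors of complex I made up 3 of the 5 that rose. *Ndufaf5* (chr2:140170649-140203689, plus strand, GRCm38 as for the others) was at 2.93 and 9.85 scaled FPKM in wild-type mice and at 14.5 and 27.8 in homozygotes, a log2 difference of 1.69 ± 0.50 (limma adjusted p = 0.0459). *Ndufaf6* (chr4:11051045-11076204, minus strand) was at 1.66 and 2.86 against 4.02 and 6.98 (0.98 ± 0.27, adjusted p = 0.0379), and *Ndufaf1*, a factor for the membrane arm (chr2:119655446-119662821, minus strand), at 6.49 and 9.70 against 13.8 and 18.7 (0.93 ± 0.26, adjusted p = 0.0386). The other 2 were *Ndufa10* of complex I (chr1:92439010-92473860, minus strand), at 21.3 and 42.5 against 55.4 and 71.2 (1.03 ± 0.30, adjusted p = 0.0463), and *Uqcrc1*, a core protein of complex III (chr9:108936633-108949623, plus strand), at 48.2 and 70.8 against 98.3 and 115.4 (0.86 ± 0.24, adjusted p = 0.0376). In all 5 both homozygous libraries exceeded both wild-type ones, and in all 5 repeat 1 of the wild-type turn was the lowest. Leaving out that repeat gave a difference of 0.95 for *Ndufaf5* (adjusted p = 0.236) and 0.55 for *Ndufa10* (adjusted p = 0.233), and each of the 5 calls was lost in at least 9 of the 12 fits that left out a library.

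*Cox7a1* (chr7:30184144-30186078, plus strand) was the member that fell. It was at 22.7 and 37.0 scaled FPKM in the wild-type basal turn and at 10.2 and 11.1 in the homozygous one, a log2 difference of -1.36 ± 0.35 (limma adjusted p = 0.0282). The call held in 9 of the 12 fits that left out a library, and it was lost without repeat 2 of the wild-type basal turn (-1.02, adjusted p = 0.0958) and without either homozygous one (-1.30 and -1.41, adjusted p = 0.112 and 0.0816). *Cox7a1* is known from heart and skeletal muscle. The sum of 10 skeletal muscle markers (*Acta1*, *Ckm* and others) was low in every library. It was 7.01 and 5.44 scaled FPKM in the wild-type basal turn against 1.79 and 2.73 in the homozygous one. The 3 of them that were tested were below 0 there without a call. In the other turns, where *Cox7a1* was higher in homozygotes, the sum did not follow it. It was 2.18 and 2.14 against 1.63 and 1.59 in the apical turn, and 2.66 and 5.18 against 4.81 and 2.62 in the middle turn. The sum of 4 markers of brown fat was at most 6.59 in any library. In the apical turn it was 0.649 to 0.715 in wild-type mice and 2.28 to 4.55 in homozygotes. For the middle turn the sums were 0.663 to 1.64 and 2.22 to 6.59, and for the basal turn 1.34 to 3.42 and 1.3 to 1.47. The 2 of them that were tested had medians of 0.85, 0.95 and -0.34 in the apical, middle and basal turn, without a call. These are the same signs as those of *Cox7a1*. Like *Cox7a1*, the cochlea markers were below 0 in the basal turn, for 11 of 11 genes (median -1.48, 4 called). So were 7 of 7 erythroid markers (median -2.89, 1 called). The part of these lists in the difference of *Cox7a1* was not tested.

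Promoters are shown for the 5 of these 6 called members that the RefSeq table holds, so that the sequence in front of each can be read beside its difference. They are RefSeq windows of 300 bases on GRCm38.p6, 250 before and 50 after the annotated start, read 5′ to 3′ along the gene, with matches to the motifs searched, on either strand, in capitals. *Ndufaf5* lies on the plus strand at chr2:140170396-140170695 and *Uqcrc1* on the plus strand at chr9:108936398-108936697, and both hold CGCATGCG, the centre of the site of NRF1, a known activator of respiratory chain genes. *Ndufaf1* lies on the minus strand at chr2:119662785-119663084 and holds CCGGAAG, an ETS motif that GABPA can bind, and the SP1 motif GGGCGG. *Ndufa10* lies on the minus strand at chr1:92473709-92474008 and holds only GGGCGG, in 2 places on the opposite strand (CCGCCC as printed). *Cox7a1* lies on the plus strand at chr7:30183921-30184220 and holds none of the motifs searched.
Ndufaf5: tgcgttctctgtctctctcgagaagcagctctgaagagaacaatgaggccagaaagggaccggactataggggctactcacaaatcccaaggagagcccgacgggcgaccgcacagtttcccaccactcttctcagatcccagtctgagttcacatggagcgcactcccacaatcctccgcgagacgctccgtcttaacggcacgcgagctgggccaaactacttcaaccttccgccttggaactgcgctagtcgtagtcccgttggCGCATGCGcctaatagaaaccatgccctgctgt
Uqcrc1: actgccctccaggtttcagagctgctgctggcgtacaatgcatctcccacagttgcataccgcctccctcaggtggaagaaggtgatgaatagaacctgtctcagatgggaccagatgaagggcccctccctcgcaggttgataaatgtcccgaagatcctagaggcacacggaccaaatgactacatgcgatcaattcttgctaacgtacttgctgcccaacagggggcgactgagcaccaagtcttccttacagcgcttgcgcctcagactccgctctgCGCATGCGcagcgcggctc
Ndufaf1: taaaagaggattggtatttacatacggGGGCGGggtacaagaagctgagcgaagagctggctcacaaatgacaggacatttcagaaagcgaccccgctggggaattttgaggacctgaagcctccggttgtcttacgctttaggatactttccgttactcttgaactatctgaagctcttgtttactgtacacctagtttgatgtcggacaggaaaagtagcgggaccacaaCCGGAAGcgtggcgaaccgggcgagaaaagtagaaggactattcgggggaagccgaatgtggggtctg
Ndufa10: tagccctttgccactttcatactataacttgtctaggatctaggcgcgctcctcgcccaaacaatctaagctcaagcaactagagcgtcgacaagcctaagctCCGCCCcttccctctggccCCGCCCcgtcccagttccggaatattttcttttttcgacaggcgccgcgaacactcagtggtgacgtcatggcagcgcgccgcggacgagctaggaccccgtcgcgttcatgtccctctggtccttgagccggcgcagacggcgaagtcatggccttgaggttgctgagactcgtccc
Cox7a1: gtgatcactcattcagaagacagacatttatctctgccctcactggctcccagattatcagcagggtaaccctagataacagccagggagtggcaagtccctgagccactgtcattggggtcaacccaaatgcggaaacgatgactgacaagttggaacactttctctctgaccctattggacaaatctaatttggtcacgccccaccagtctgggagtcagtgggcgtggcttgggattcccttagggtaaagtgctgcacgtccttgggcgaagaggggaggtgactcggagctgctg

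Of the 90 members 74 had a promoter in the RefSeq table, with 79 promoters in all. CGCATGCG stood on either strand in 11 of them (13.9%), against 1.87% of the 32851 promoters of the same length. CCGGAAG stood in 24.1% against 8.86%, the YY1 motif AAGATGGC in 12.7% against 2.75%, the ERR motif TCAAGGTCA in 2.53% against 0.423%, and GGGCGG in 43.0% against 35.7%. No motif is part of another, and the shares are descriptions of these windows. Of the 11 members whose promoter holds CGCATGCG, *Ndufaf5* and *Uqcrc1* were called in the basal turn, and the other 9 had basal log2 differences from -0.12 for *Atp5g2* to 0.62 for *Ndufaf4*, none of them called.

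The genotype difference was then compared between the middle and the basal turn. The difference between the turns, tested as an interaction in the same fit, was called at an adjusted p under 0.05 for 11 members. Of these 9 were higher (10% of the members, beside 12.6% of all genes) and 2 lower (2.22%, beside 10.3%), and 0 passed the thresholds of the study, beside 8.91% of all genes. Each of these shares of members was below that of all genes. The median of the interaction was 0.98 over the members and -0.12 over all genes, with 81 members above 0. Of the 90 members 73 were below 0 in the middle and above 0 in the basal turn. The neuron markers did the same, with a median interaction of 8.05 and 9 of 10 called. Other lists had interactions below 0: 11 of 11 cochlea markers (median -3.87, 7 called) and 7 of 7 stria marginal markers (-2.81, none called). So did 9 of 10 hair cell markers (median of the 10 -3.16, 7 called lower and 1 higher). The part of these lists was not tested. The members' count ranged from 1 to 34 when a library was left out, the 34 coming without repeat 2 of the wild-type basal turn, where 28.8% of all genes were called.

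**Figure D3:**
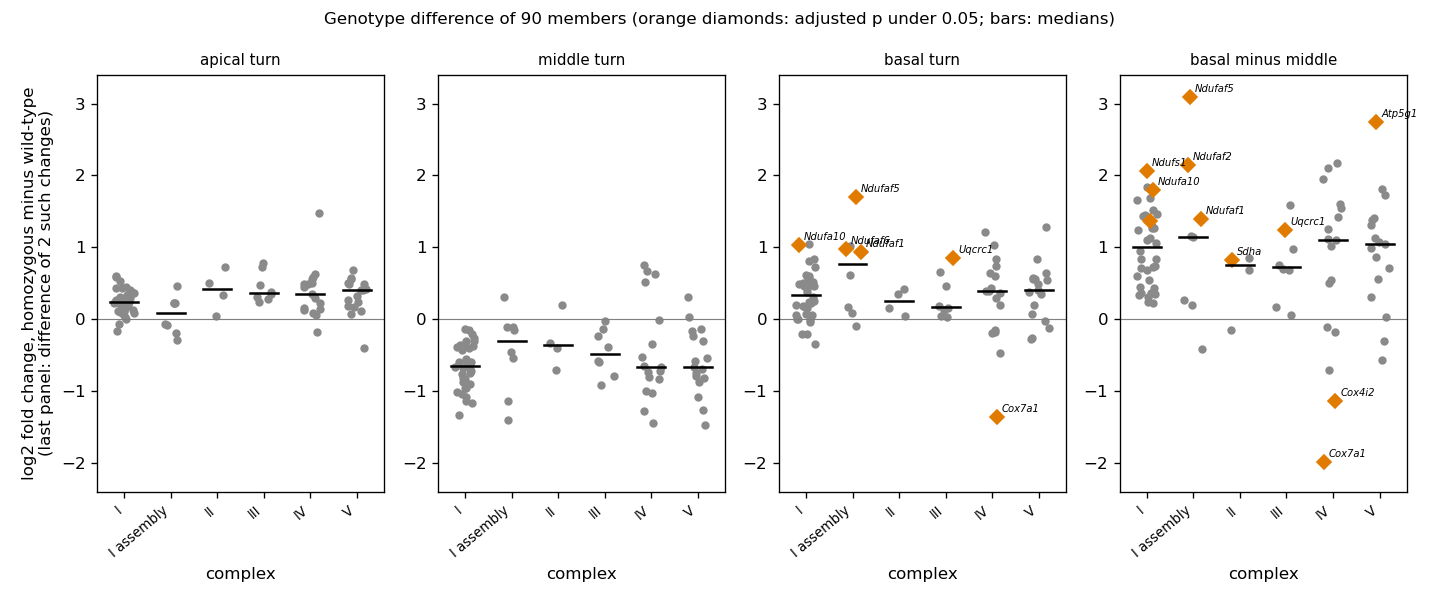
Log2 difference between homozygous and wild-type libraries for each of the 90 members (points) by complex in the 3 turns, and the basal difference minus the middle one in the last panel. Bars mark the median of a complex and orange diamonds the members with an adjusted p under 0.05, 6 in the basal turn and 11 in the last panel, while the apical and the middle turn have none.

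*Ndufaf5* had the widest interaction, 3.10 ± 0.70 (limma adjusted p = 0.0152), and it was called in all 12 fits that left out a library. Its middle values of 15.3 and 17.3 against 7.25 and 4.18, and its basal values of 2.93 and 9.85 against 14.5 and 27.8, have the genotypes in opposite order. Among the complex I subunits *Ndufs1* differed by 2.06 ± 0.54 (limma adjusted p = 0.0264) and *Ndufa10* by 1.80 ± 0.43 (0.0188). Others with a called interaction above 0 were *Ndufaf2* (2.15), *Atp5g1* (2.74), *Ndufaf1* (1.39), *Uqcrc1* (1.24) and *Sdha* (0.83), with limma adjusted p-values from 0.0273 to 0.0393. *Sdha*, the steadiest of these, was at 100 and 112.4 scaled FPKM against 81.6 and 78.7 in the middle turn and at 81.5 and 96.1 against 121.7 and 116.9 in the basal turn. Exons of *Ndufs1* overlap those of *Eef1b2* on the opposite strand, which reached 96.6 FPKM, and whether the authors' values keep the strands apart is not given in the sources used here.

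*Cox7a1* and *Cox4i2* had interactions below 0, at -1.99 ± 0.49 and -1.14 ± 0.33 (limma adjusted p = 0.0211 and 0.0378). Both are alternative copies of complex IV subunits. Basal levels of *Cox4i2*, the copy known from the lung and from low oxygen, were 2.48 and 2.96 scaled FPKM in wild-type mice and 1.25 and 2.22 in homozygotes, without overlap.

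**Figure D4:**
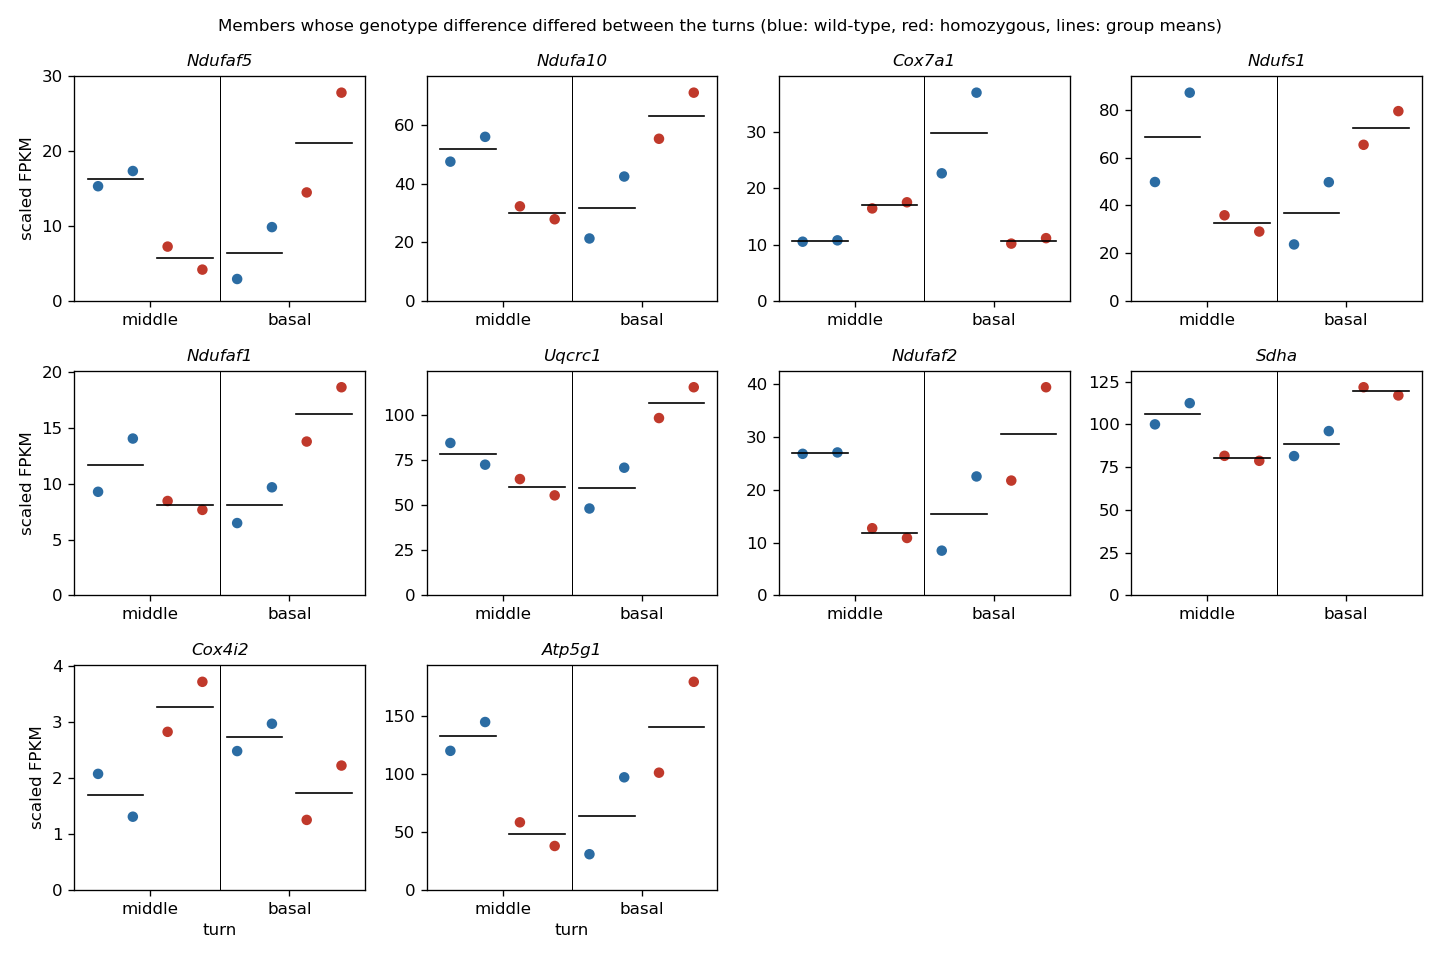
Scaled FPKM of 10 of the 11 members whose genotype difference differed between the turns, 1 point for each of the 8 middle and basal libraries (blue wild-type, red homozygous) with lines at the group means. In 8 of the genes drawn the red mean lies below the blue one in the middle turn and above it in the basal turn, with overlap in the basal turn for Ndufaf2 alone among them, and in Cox7a1 and Cox4i2 the order is the reverse.

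Averaged over the 3 turns no member passed the test. None was called by either rule, beside 0.376% of all genes by the thresholds of the study, and 1.01% as higher and 1.35% as lower at an adjusted p under 0.05. Before adjustment 2 members were under 0.05 as higher and 1 as lower, beside 18.6% of all genes. The median was 0.01, with 50 members above 0 and 40 below. The smallest p belonged to *Cox6b2*, known as the testis form of a complex IV subunit, with a mean difference of 0.68 ± 0.21 (limma adjusted p = 0.126). It was higher in homozygotes without overlap in the apical turn, at 5.40 and 6.79 against 4.02 and 3.12 scaled FPKM, and in the middle turn, at 8.07 and 8.30 against 4.75 and 4.13. The basal libraries, at 6.63 and 15.5 against 4.49 and 8.32, overlapped.

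Copies that stand in for each other in the same place of a complex had unlike profiles. *Cox7a1* made up 3.43% to 21.5% of the summed level of *Cox7a1* and *Cox7a2*. Its share was 5.08% and 7.40% in the wild-type apical turn against 12.9% and 12.9% in the homozygous one, and 4.27% and 4.52% against 10.4% and 12.9% in the middle turn. The order turned in the basal turn, with 21.5% and 12.8% in wild-type mice against 7.77% and 3.43% in homozygotes. *Cox8b*, known from heart and muscle, varied most of all members, from 1.70 scaled FPKM in repeat 1 of the wild-type basal turn to 82.0 in repeat 2 of it. Its share beside *Cox8a* was 0.578% and 17.7% in those libraries, and the genotypes overlapped in all 3 turns.

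Other copies were minor in every library. *Cox4i2* was 0.271% to 1.28% of the sum with *Cox4i1*, *Ndufa4l2*, known as a gene of low oxygen, 0.269% to 3.16% of the sum with *Ndufa4*, and *Cox6b2* 1.17% to 4.80% of the sum with *Cox6b1*. *Cox6a2*, the muscle copy below the limit, was listed at 0 in 5 libraries and made up at most 0.377% beside *Cox6a1*. The genes *Atp5g1*, *Atp5g2* and *Atp5g3* code for the same ring protein of the ATP synthase with different leader peptides. *Atp5g3* gave the largest share, 54.7% to 71.0%. *Atp5g1* gave 25.9% and 28.4% in the wild-type middle turn against 14.7% and 11.1% in the homozygous one, and 12.4% and 19.6% in the wild-type basal turn against 23.8% and 27.0%, so it changed sides between the turns. The share of *Atp5g2* changed sides the other way. It was 15.9% and 16.9% against 20.9% and 17.9% for the middle turn. For the basal turn it was 24.1% and 18.8% against 12.8% and 13.1%. Shares of a common sum are tied, so a higher share of *Atp5g1* lowers those of the other copies. The level of *Atp5g2* did not change sides. Its log2 difference was -0.16 for the middle turn and -0.12 for the basal one (limma adjusted p = 0.783 and 0.820), with overlap of the genotypes each time. Reads that matched more than 1 place were not kept by the authors, so genes with close copies or pseudogenes can be read too low.

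**Figure D5:**
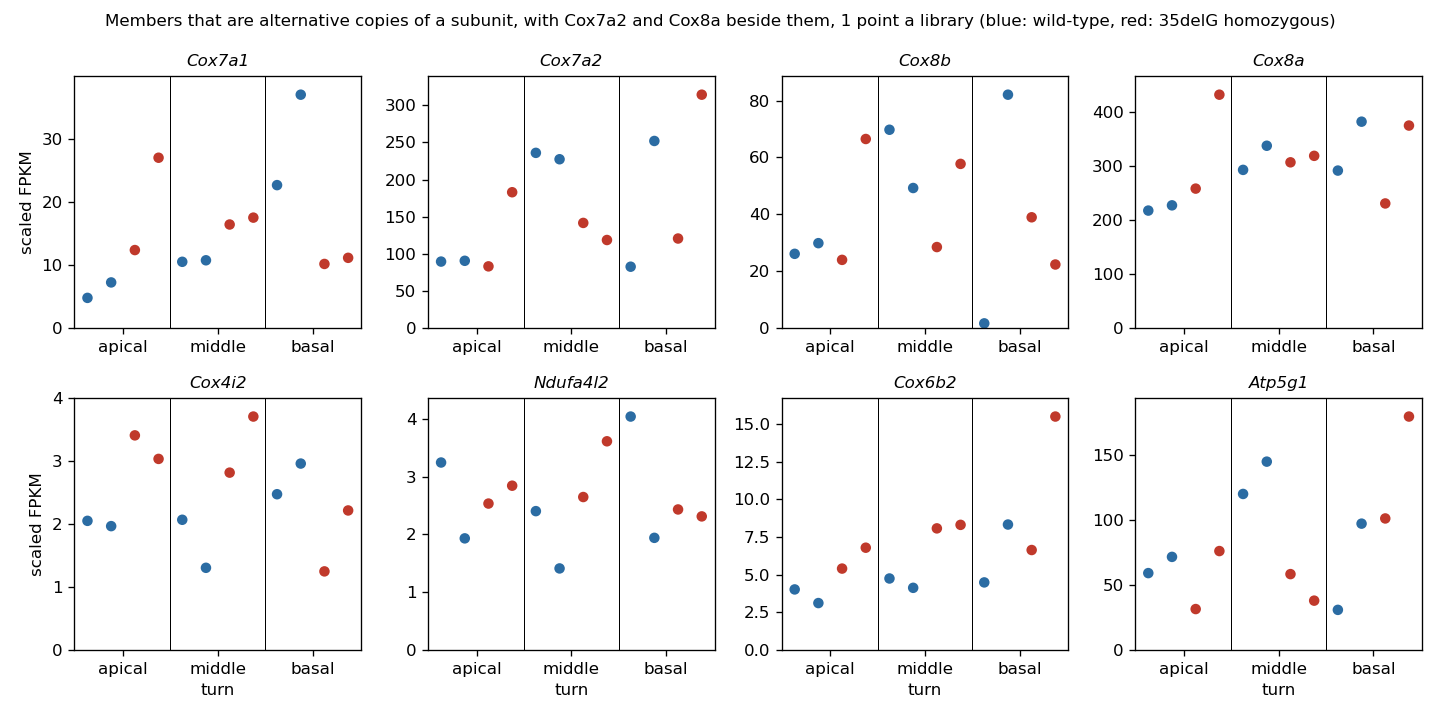
Scaled FPKM of alternative copies of subunits in the 12 libraries by turn, 1 point a library (blue wild-type, red homozygous), with Cox7a2 and Cox8a for comparison and each axis starting at 0. Cox7a1 is lower in the homozygous basal turn, at 10.2 and 11.1, than in the wild-type one, at 22.7 and 37.0, and Cox8b ranges from 1.70 to 82.0 within the wild-type basal turn.

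The members least like the others were *Ndufa4l2* and *Cox4i2*, with correlations of -0.60 and -0.24 to the median profile, followed by *Cox7a1* at 0.27, *Ndufaf7* at 0.34, *Ndufaf8* at 0.43, *Atp5d* at 0.44, *Sdhc* at 0.45 and *Cox8b* at 0.47. *Ndufaf7*, which methylates a complex I subunit, was the steadiest member, with a ratio of 1.48 between its highest and lowest library. Outside the list, the genes closest to the profile among 6147 with a mean of at least 10 FPKM were *Phb*, a prohibitin of the inner mitochondrial membrane, at 0.981, then *Mea1* at 0.976, *Mrpl42* and *Ift20* at 0.971 each and *Mrpl13* at 0.971. *Mrpl42* and *Mrpl13* are proteins of the mitochondrial ribosome, and 203 genes outside the list passed 0.9.

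The middle-turn difference was similar in size across classes of annotated length, taken as the longest annotated transcript of each gene. That transcript need not be the one expressed, and *Atp5g1* counts as 4715 nt and *Atp5l* as 6310 nt by it. The 41 members under 1000 nt had a median difference of -0.58 there, the 28 from 1000 nt up to 2000 nt -0.65 and the 21 of 2000 nt or more -0.68. The basal medians were 0.19, 0.47 and 0.55 in the same order. Of the 11 members with a called interaction 6 were 2000 nt or longer by that measure. The median of 556 other protein-coding genes under 1000 nt ran from -0.35 to 0.42 between libraries on the centred log2 scale, and that of the members from -0.50 to 0.74.

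The subunits made inside the mitochondrion were lower in the middle turn as well. Summed over the 13 protein genes of the mitochondrial genome, the level was 47200 and 76690 scaled FPKM in wild-type mice and 36740 and 24570 in homozygotes, 13 of 13 genes were below 0 (median -1.12), and none was called. They did not follow the members in the basal turn, where 11 of 13 were below 0 (median -0.38, none called) and 75 of 90 members above. The sum was 2.63 and 2.85 times that of the members in the homozygous basal libraries, and 3.03 to 5.53 times in the other 10. Some of these genes, such as *mt-Atp6* at 8.10 to 53.7 beside *mt-Co1* at 6228 to 21970, were far below their neighbours, and *mt-Co2* was listed at 0 in repeat 2 of the wild-type basal turn. Only uniquely mapped reads were kept, and how many reads these genes lost by that was not tested.

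Other genes around the pathway shared part of the pattern. Of 38 assembly factors outside the members that were tested, 31 were below 0 in the middle turn (median -0.21) and 26 above 0 in the basal turn (median 0.18). *Atpaf1*, a chaperone of the ATP synthase, fell in the middle turn (-1.10, limma adjusted p = 0.0399) and rose in the basal turn (1.71, adjusted p = 0.00476), as did *Uqcc1* of complex III (-0.68 and 0.79, adjusted p = 0.04996 and 0.0125). Of the 38 factors 2 were called lower in the middle and 6 higher in the basal turn, beside 2.36% and 9.94% of all genes. Among 16 genes of the tricarboxylic acid cycle, which feeds complexes I and II, 15 were below 0 in the middle turn (median -0.54, none called) and 15 above 0 in the basal turn (median 0.65), where *Cs* (0.58), *Idh3a* (1.44) and *Dlat* (0.98) rose. Of 17 electron carriers and their partners none was called in any turn.

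Lists for the making and amount of mitochondria were described by the same counts. Over all genes 9.94% were called higher and 8.17% lower in the basal turn, and 2.36% lower in the middle turn. Of 78 mitochondrial ribosomal proteins 59 were below 0 in the middle turn (median -0.15, none called), and in the basal turn, with a median of 0.13, 3 were called higher and 1 lower. Of 25 import genes 4 were called higher in the basal turn, and *Tomm20*, a receptor of the outer membrane, was called lower in the middle turn (-0.92, limma adjusted p = 0.0204). *Vdac1*, the abundant pore of the outer membrane, was the called gene of 8 for mitochondrial amount in the basal turn (1.23, adjusted p = 0.0328), where the median of the 8 was 0.54. Of 12 regulators 3 rose in the basal turn, *Ppargc1a* (1.16), *Ppargc1b* (0.92) and *Esrrg*, a nuclear receptor of the ERR family, and none was called in the others, while *Nrf1*, *Tfam*, *Gabpa* and *Esrra* were not called in any turn. *Esrrg* had a wide difference, 3.31 in the basal turn (limma adjusted p = 0.0204) and -2.80 in the middle turn (adjusted p = 0.0712).

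Glycolysis, the route to ATP without oxygen, was measured on 18 rows for 17 names. Of these 5 were called higher and 1 lower in the basal turn, beside 9.94% and 8.17% of all genes. In the apical and middle turn 1 each was higher, beside 0.518% and 1.63% of all genes. The gene called in those 2 turns was *Ldha*, lactate dehydrogenase A, at 58.4 and 47.8 scaled FPKM in wild-type mice against 137.5 and 185.8 in homozygotes in the apical turn, and at 65.2 and 68.9 against 164.8 and 162.0 in the middle turn. Its log2 differences there were 1.58 and 1.27 (limma adjusted p = 0.0106 and 0.0207). It fell in the basal turn, at 100.9 and 119.1 against 70.0 and 61.5 (-0.73, adjusted p = 0.0332). *Ldha* was thus higher in homozygotes in the apical and middle turns and lower in the basal turn, the same signs as *Cox7a1*.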

How the data were processed

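RNA-seq of 12 cochlear libraries at P14 (6 groups of genotype and turn, 2 repeats each) was used. The authors trimmed reads with fastp 0.20.0, aligned them to mm10 with STAR 2.7.3a, kept uniquely mapped reads and calculated the deposited FPKM with StringTie 2.0. Their counts, tested with DESeq2, were not used here. All 12 value columns were used, and their FPKM summed to 316425 to 408162, which is not a depth.

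FPKM were divided by median-of-ratios factors over 11552 genes. Genes reaching 1 FPKM in 2 libraries (16215) were tested on log2(scaled FPKM + 1) with limma 3.58.1 (R 4.3.3): group means, eBayes with trend (6 residual, 2.78 prior degrees of freedom), two-sided, Benjamini-Hochberg adjustment. The pseudocount of 1 makes fold changes of low genes too small. The fit was tested on simulated data. Its genes varied independently and its planted changes were larger than most differences of the members, so it does not check calls like these. Calls took an adjusted p under 0.01 with a fold over 2, or under 0.05. Members and gene lists were chosen with earlier results of these data known. Named genes followed a rule: core subunits, alternative copies, assembly factors, smallest p, highest mean, and those at the limit. Alternatives were another pseudocount, filter, scaling, sample set or block, leaving out each library and, chosen after seeing the data, removing a length trend. Identifiers were matched with version to GENCODE M21 (90 of 90 members, 74 with the same start and end). Promoters came from RefSeq. Values of 1 member, included in all counts and medians, are not reported here. Python 3.11.15 and matplotlib 3.10.9 drew figures.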

Additional observations from a re-analysis of the deposited data

Results flagged for a closer look

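For 11 of the 90 members the genotype difference in the basal turn differed from that in the middle turn by the interaction term of limma at an adjusted p under 0.05, beside 12.6% of all genes as higher and 10.3% as lower. The interaction, as basal minus middle log2 difference, was 3.1 for *Ndufaf5*, 2.74 for *Atp5g1*, 2.15 for *Ndufaf2*, 2.06 for *Ndufs1*, 1.8 for *Ndufa10*, 1.39 for *Ndufaf1*, 1.24 for *Uqcrc1* and 0.83 for *Sdha*. It was -1.99 for *Cox7a1* and -1.14 for *Cox4i2*. Of the members named here, *Ndufaf5* was called in all 12 fits that left out a library and *Ndufa10* in 9. *Cox7a1* and *Ndufs1* were called in 8 each, *Ndufaf1* in 7 and the others named in 3 or 4. The summed neuron markers differed between genotypes in the same 8 libraries and in the same order as the 9 members with an interaction above 0. The cochlea, hair cell and stria marginal markers had median interactions below 0. The part of these lists was not tested.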

How the results depend on the processing

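None of the gene differences followed changed direction under an alternative fit of all libraries, and the medians of the members moved by less than the spread between repeats (0.42). The apical, basal and mean medians were themselves smaller than that spread, so a change of their direction was not counted. The basal count of 6 members at an adjusted p under 0.05 became 0 with no filter, 0 with only the libraries compared and 10 with quantile normalization. The interaction count of 11 became 1, 2 and 17 in the same order, 19 with the replicate number as a block and 21 with the length trend removed, where 3 also passed the thresholds of the study. With no filter more genes are tested, and with only the libraries compared fewer libraries give the spread. The cause of the other shifts was not tested. Correlations of the deviations of same-numbered libraries ran from -0.43 to 0.45. They were above 0 among the homozygous apical, wild-type basal and homozygous basal groups (0.21 to 0.45) and not in most other pairs of groups, so the numbers were not taken to pair the samples, although turns of a number may share animals. The block changed no other count by more than 1.5 times.

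Leaving out each library in turn gave 0 to 15 calls at 0.05 in the basal turn (0 without repeat 2 of the homozygous basal turn, 15 without repeat 2 of the wild-type one), 1 to 34 for the interaction (1 without repeat 2 of either middle group), and 0 to 1 in the middle turn and for the mean. By the thresholds of the study it gave 0 to 4 in the basal turn and 0 to 7 for the interaction. Medians ran from -0.08 to 0.67 in the apical turn, -0.72 to -0.47 in the middle, -0.14 to 0.83 in the basal turn, -0.15 to 0.18 for the mean and 0.48 to 1.41 for the interaction. A lone library left in a group is assumed to vary like the others. The unknown depth leaves counting error unmeasured.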
